A study of Homo sapiens with 12 samples.

Results

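The double knock-down of ETV6 and NFKB1 was compared with control siRNA in U251 cells, a glioblastoma line of human origin obtained from the ATCC. The comparison used 6 of the 12 arrays of the series, 3 with both siRNAs (called double siRNA here) and 3 with a control siRNA that matches no known human transcript, chosen by the siRNA named in the sample labels. ETV6 and NFKB1 were targeted with ON-TARGETplus SMARTpool siRNA, transfected with DharmaFECT 2, and every siRNA was added at 50 nM. Double siRNA cells therefore received both pools, and the labels do not say whether the control siRNA matched their summed amount, so a change due to the amount of siRNA and one due to the targets cannot be told apart. The other arrays of the series were 3 with ETV6 siRNA alone and 3 with NFKB1 siRNA alone. Total RNA was extracted with the mirVana kit, converted to biotin-labelled cRNA and hybridized to Affymetrix arrays. Each gene was represented by 1 probe set, the one that names only that gene and has the highest mean over all 12 arrays, which gave 10346 genes, of which 7760 were bright enough to test. The labels do not state whether the 3 replicates were grown and transfected independently, and p-values therefore cover only the spread between these arrays, which may be technical.

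ETV6 is a transcription factor of the ETS family that mostly represses, and ETS factors bind DNA around a GGAA core. NFKB1 encodes p105, which is processed to p50, an NF-kB subunit without a transactivation domain of its own; p50 activates genes when paired with RELA and can repress them when paired with itself. IkB proteins such as NFKBIA hold NF-kB dimers in the cytoplasm until the IKK complex, which contains CHUK, marks them for destruction. In glioblastoma, NF-kB activity is known for its ties to inflammatory signalling and to mesenchymal traits.

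Both families recognise short DNA motifs, and promoters of 8 genes described below are shown because they carry one. The sequences are from RefSeq on GRCh38.p14, each a stretch of 100 bases within the 250 bases upstream of the start site, 5′ to 3′ along the strand of the gene. Counted back from the start site, the stretch runs from base 100 to base 1 in NFKB1 and GRWD1, 118 to 19 in IL6, 107 to 8 in VCAM1, 126 to 27 in NFKBIA, 111 to 12 in LIN7C, 194 to 95 in KDM7A and 250 to 151 in OGFRL1. For the kappa B motif of NF-kB (its consensus allows any base at 2 of its positions), searched on both strands within 250 bases upstream, capitals mark the match in NFKB1 itself (chr4:102501259-102501358, plus strand), in IL6 (chr7:22727082-22727181, plus strand), VCAM1 (chr1:100719635-100719734, plus strand) and NFKBIA (chr14:35404776-35404875, minus strand).
NFKB1: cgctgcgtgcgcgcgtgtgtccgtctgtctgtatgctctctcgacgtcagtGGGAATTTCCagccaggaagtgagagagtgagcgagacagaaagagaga
IL6: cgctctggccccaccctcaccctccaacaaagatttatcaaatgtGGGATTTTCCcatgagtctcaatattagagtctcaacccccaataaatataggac
VCAM1: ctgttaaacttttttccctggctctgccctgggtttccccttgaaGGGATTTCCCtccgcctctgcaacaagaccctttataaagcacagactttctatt
NFKBIA: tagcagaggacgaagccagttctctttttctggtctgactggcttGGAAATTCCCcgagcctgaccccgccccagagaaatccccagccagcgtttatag
For the ETS core CCGGAA, searched the same way, capitals mark the match in GRWD1 (chr19:48445883-48445982, plus strand), LIN7C (chr11:27506781-27506880, minus strand), KDM7A (chr7:140177078-140177177, minus strand) and OGFRL1 (chr6:71288561-71288660, plus strand).
GRWD1: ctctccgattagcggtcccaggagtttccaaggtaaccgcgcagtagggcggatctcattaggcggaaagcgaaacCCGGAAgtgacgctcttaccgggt
LIN7C: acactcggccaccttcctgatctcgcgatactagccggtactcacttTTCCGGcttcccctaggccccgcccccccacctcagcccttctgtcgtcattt
KDM7A: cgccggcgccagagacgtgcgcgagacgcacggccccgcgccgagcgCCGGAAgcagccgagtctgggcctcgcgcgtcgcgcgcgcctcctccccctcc
OGFRL1: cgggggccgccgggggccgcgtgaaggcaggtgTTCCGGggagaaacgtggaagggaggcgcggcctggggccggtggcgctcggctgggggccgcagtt
The motifs can share the letters CC at their ends. A promoter was found for 6576 tested genes. The ETS core was present in 27.1% of the promoters of genes called higher with double siRNA and in 27.9% of those called lower, against 27.9% of all tested promoters and 14.8% of all 27305 promoters in the table. The NF-kB motif was present in 1.81% of promoters of genes called higher and in 1.3% of those called lower, against 1.44% of tested promoters and 1.27% of all promoters. A match is a description of these letters and no evidence that a factor binds there.

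Double siRNA cells differed from control siRNA cells over most of the measured transcriptome. By limma with Benjamini-Hochberg adjustment, 6274 genes passed an adjusted p of 0.05 (80.9% of those tested), of which 2473 were higher (31.9%) and 3801 lower (49.0%). The large changes were mostly increases: 565 genes rose over 2-fold (7.28%), and 36 fell over 2-fold (0.464%). The 5th and 95th percentiles of the log2 change (double minus control siRNA) were -0.72 and 1.15, around a median of -0.13. All 3 double siRNA arrays lay above all 3 control siRNA arrays for 2596 genes (33.5%) and below them for 3944 (50.8%), so the groups were separated for 84.3%. The median SD between arrays over genes was 0.047 log2 units in double siRNA and 0.107 in control siRNA.

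The control probe sets of the array differed between the same groups, which touches every direction given below. The 24 probe sets for poly-A spike-ins, transcripts added to the RNA in known amounts during labelling, averaged log2 7.99, 8.05 and 7.97 in double siRNA and 8.82, 9.35 and 8.53 in control siRNA, and 24 of 24 had every double siRNA array below every control siRNA array. The hybridization controls, which are added later, averaged 10.66, 10.72 and 10.92 in double siRNA and 11.19, 11.25 and 10.90 in control siRNA. For these the groups overlapped at 1 array each, and 7 of 18 probe sets were separated with double siRNA lower. The poly-A mean minus the hybridization mean was -2.670, -2.669 and -2.953 in double siRNA and -2.372, -1.901 and -2.366 in control siRNA. In ETV6 siRNA it was -2.067, -2.621 and -2.665. Between double and control siRNA it differed by -0.55, against -0.90 for the poly-A mean alone. The poly-A shift used below takes the poly-A mean alone. The 3′ probe set of ACTB exceeded its 5′ probe set by 2.05, 2.13 and 2.16 log2 units in double siRNA and by 1.54, 1.73 and 1.91 in control siRNA, while the same difference for GAPDH was 0.46, 0.50 and 0.51 in double siRNA and 0.49, 0.48 and 0.54 in control siRNA. ACTB thus had a larger 3′ excess in double siRNA and GAPDH did not separate the groups; the part of either in the gene changes was not tested. The sources used here do not give the scaling applied by the authors.

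**Figure D1:**
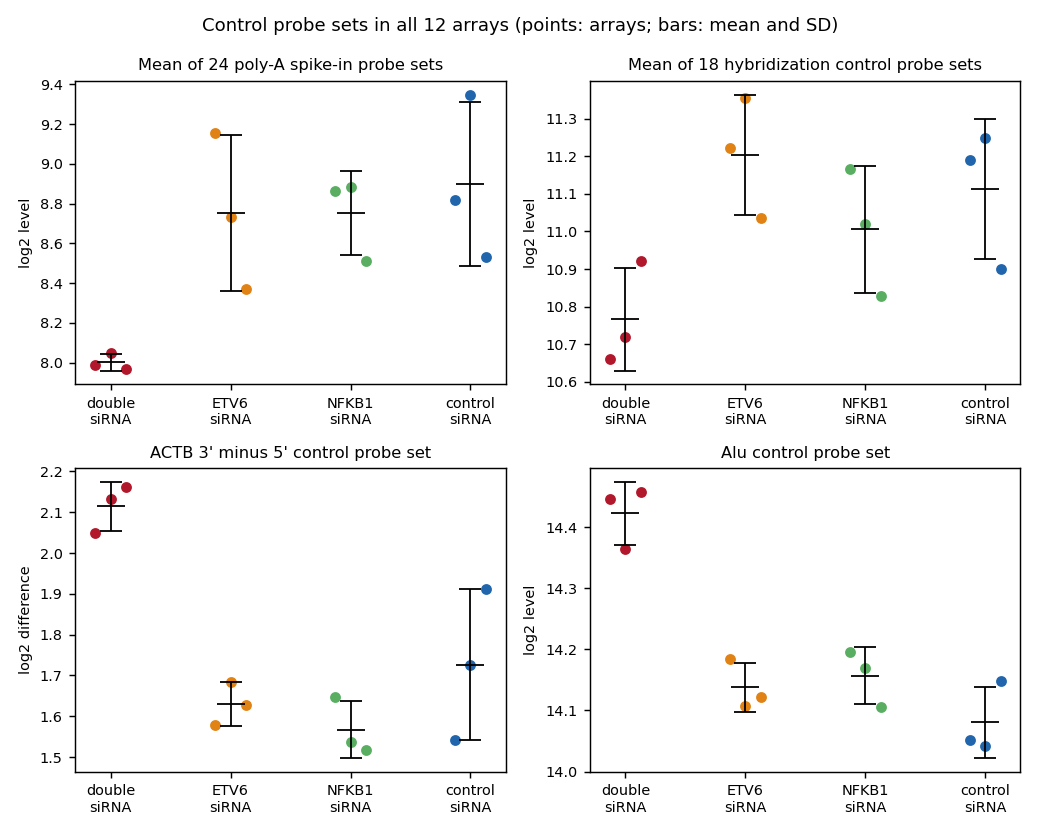
Control probe sets in all 12 arrays, in log2 units, with double siRNA, ETV6 siRNA, NFKB1 siRNA and control siRNA from left to right; points are arrays, and bars are the mean and SD of 3. The double siRNA arrays sit at 7.97 to 8.05 for the poly-A spike-ins, below the other 9 arrays, and at 2.05 to 2.16 for the ACTB 3′ minus 5′ difference, above them.

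The scaling decides the split between higher and lower. On the deposited values 39.4% of the called genes were higher. This share was 32.0% after shifting every array to the same median, 35.7% after quantile normalization and 99.9% after shifting every array to the same poly-A mean. The median change of all genes was -0.13 as deposited, -0.24 with equal medians, -0.19 with quantiles and 0.77 with equal poly-A means, where 5110 genes were called higher and 4 lower. A poly-A shift adds the same amount to every gene, so the order of the genes and their distance from the median of all genes stay. Each array is shifted by its own spike-in mean. These means had an SD of 0.413 in control, 0.392 in ETV6, 0.21 in NFKB1 and 0.042 in double siRNA. That spread enters the standard error of every gene, so p-values after the shift reflect both the estimate and this spread. "Rose" and "fell" below refer to the deposited scale and are used only of genes with an adjusted p under 0.05, and for gene lists the median is also given after the poly-A shift and as the distance from the median of all genes.

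**Figure D2:**
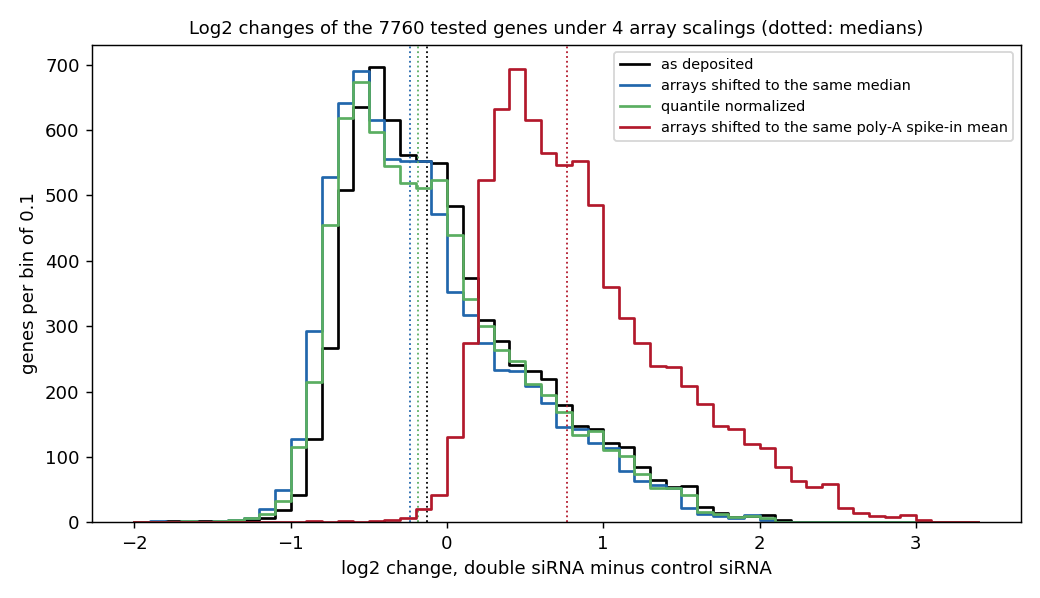
Number of tested genes per 0.1-wide bin of the log2 change, double siRNA minus control siRNA, under 4 array scalings; dotted lines are medians. The median lies at -0.13 as deposited and at 0.77 after the poly-A shift, with a longer tail to the right in each scaling.

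Control siRNA replicate 3 stood apart from the other 2 control arrays, toward double siRNA. It was above both in 83.5% of the genes called higher, against 38.3% of all tested genes, and below both in 76.3% of the genes called lower, against 46.8% of all. Without it 6413 genes were called, 2541 higher and 3872 lower. Of 8 markers of glioma cells and astrocytes, VIM, GFAP, CD44 and FABP7 lay between the 97.4th and the 99.9th percentile of gene levels in control siRNA cells, NES at the 91.6th, SLC1A3 at the 87.3rd, S100B at the 54.5th and CHI3L1 at the 49.4th, ranks that also depend on the probes. The sum of these 8 levels, taken off the log scale, was 50285 to 52387 in double siRNA and 54927 to 58981 in control siRNA, without overlap. Of 24 markers of epithelial, immune, endothelial, neuronal and oligodendrocyte cells, 6 had a probe set of their own in the deposited values. Of these, 3 were bright enough to test (KRT18, MAP2 and TUBB3). The sum of those 6 levels was 8780 to 9097 in double siRNA and 8601 to 9022 in control siRNA, overlapping ranges, and TUBB3 made up most of it. Neuronal MAP2 averaged 11.12 in double siRNA and 9.90 in control siRNA, and neuronal SYT1 7.78 in double siRNA and 6.96 in control siRNA. Oligodendrocyte MBP averaged 7.45 in double siRNA and 6.73 in control siRNA. These were higher without overlap, but a second probe set of MAP2 changed by -0.20. Neuronal TUBB3 (12.55 in double siRNA, 12.81 in control siRNA) and epithelial KRT18 (7.35 in double siRNA, 7.90 in control siRNA) were lower without overlap. Endothelial KDR overlapped. Groups were separated for 84.3% of all tested genes. The part of these markers in the results below was not tested.

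Both targets were reduced. ETV6 had log2 levels of 7.44, 7.36 and 7.29 in double siRNA, against 9.02, 9.02 and 8.58 in control siRNA, a change of -1.51 ± 0.11 (SE, limma adjusted p = 1.24e-06). Its second probe set moved by -1.63, and after the poly-A shift the change was -0.61 (adjusted p = 0.029). NFKB1 had 6.50, 6.58 and 6.57 in double siRNA, against 7.22, 7.24 and 7.49 in control siRNA, a change of -0.77 ± 0.18 (adjusted p = 0.00165). The groups did not overlap for either gene. NFKB1 was read by a dim probe set under the level filter, kept because it is a target, and its change was 0.13 (adjusted p = 0.629) after the poly-A shift. ETV6 was higher in double siRNA than in ETV6 siRNA alone by 0.64 ± 0.11 (adjusted p = 0.000157) (ETV6 siRNA arrays at 6.80, 6.78 and 6.60), and the difference for NFKB1 between double siRNA and NFKB1 siRNA alone was -0.04 ± 0.18 (adjusted p = 0.847, and 0.0351 with array weights). After the poly-A shift that difference was 0.71 (adjusted p = 0.0129), in the other direction.

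**Figure D3:**
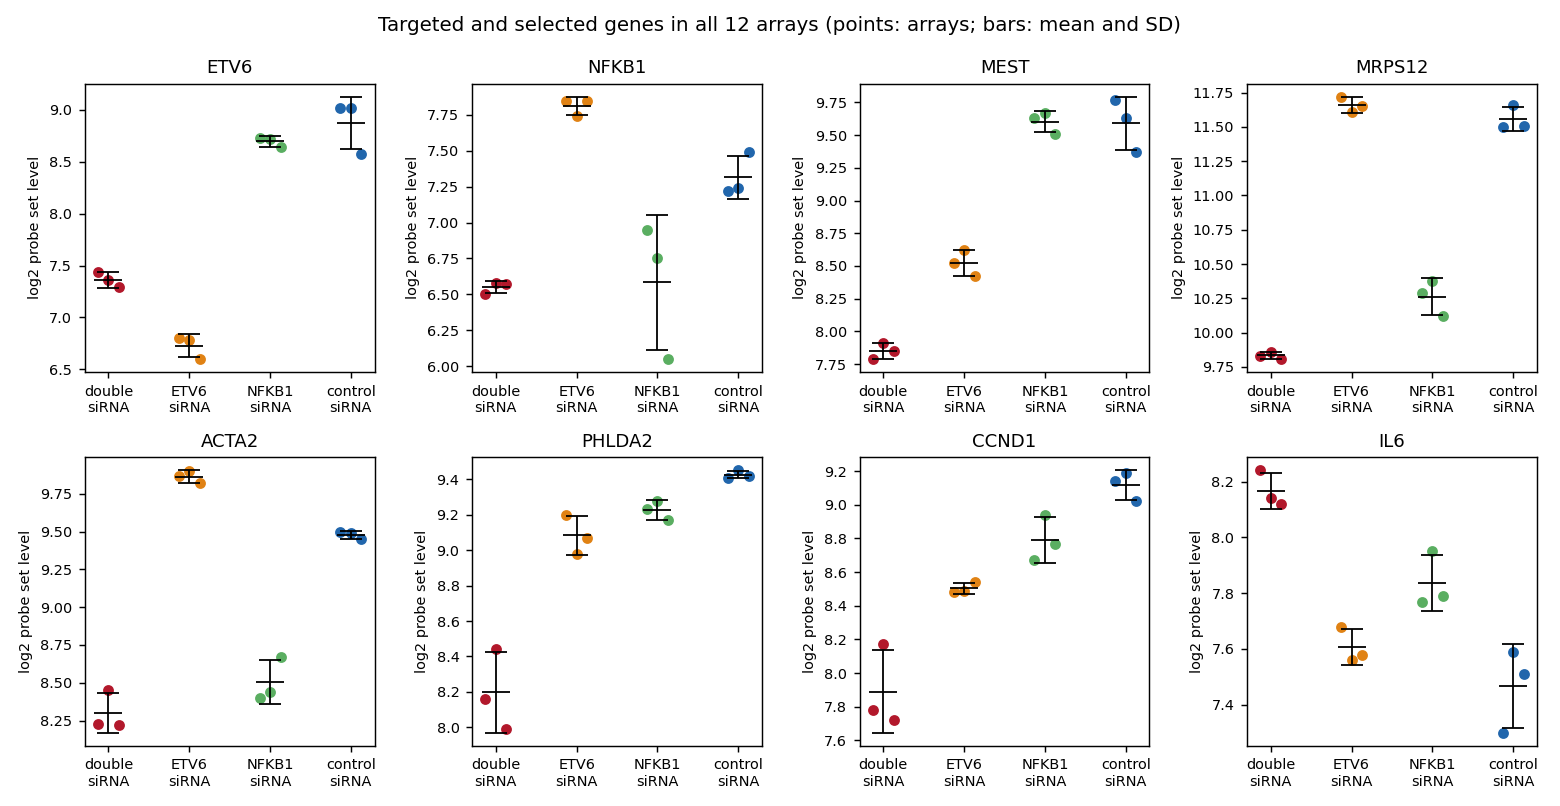
Log2 probe set levels of ETV6, NFKB1 and 6 further genes in all 12 arrays, with double siRNA, ETV6 siRNA, NFKB1 siRNA and control siRNA from left to right; points are arrays, and bars are the mean and SD of 3. ETV6 lies at 7.29 to 7.44 in double siRNA, above ETV6 siRNA alone and below control siRNA.

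The 24 largest increases ranged from 1.89 to 2.39 log2 units, and in 24 of 24 control siRNA replicate 3 was the highest control array. OGFRL1, whose promoter is shown above, had 10.68, 10.62 and 10.79 in double siRNA and 8.08, 7.98 and 8.86 in control siRNA. TIA1, an RNA-binding protein of stress granules and alternative splicing, had 9.76, 9.63 and 9.74 in double siRNA and 7.12, 7.42 and 8.11 in control siRNA, and its 5 probe sets changed by 1.47 to 2.16. In both genes the double siRNA arrays lay close together and the control arrays were spread. LIN7C, a scaffold protein of cell junctions, had 10.35, 10.36 and 10.45 in double siRNA and 7.99, 7.96 and 8.74 in control siRNA (2.16 ± 0.16, adjusted p = 1.67e-06). DEPDC1, a gene of mitotic progression, had 10.10, 9.99 and 10.09 in double siRNA and 7.78, 7.61 and 8.58 in control siRNA (2.07 ± 0.21, adjusted p = 5.64e-06), and its 4 probe sets agreed at 1.85 to 2.19. The increases past the first 8 covered lipid and membrane proteins as well as signalling. OSBPL8, a lipid transfer protein of the endoplasmic reticulum, rose by 2.06, MTMR6, a phosphoinositide phosphatase, by 1.99, and LMBRD2, a membrane protein, by 2.07. SMAD5, a transducer of bone morphogenetic protein signals, rose by 2.01 on the probe set used, with 10.11, 9.98 and 10.0 in double siRNA and 7.77, 7.72 and 8.57 in control siRNA, while its 5 probe sets spanned 0.38 to 2.01. MAP3K2, a kinase of the MAPK cascade, rose by 1.91 with 5 probe sets between 1.63 and 1.91. PELI1, an E3 ligase of Toll-like receptor signalling, had 9.07, 9.07 and 9.05 in double siRNA and 6.78, 6.97 and 7.47 in control siRNA (1.99 ± 0.17, adjusted p = 2.51e-06). KDM7A, a histone demethylase, had 9.49, 9.27 and 9.40 in double siRNA and 7.11, 7.09 and 7.81 in control siRNA (2.05 ± 0.17, adjusted p = 2.26e-06). Further genes in this set were the inositol transporter SLC5A3 (1.90), the Hsp70-family protein HSPA13 (1.91), the glycosyltransferase B3GNT5 (1.94), the endocytosis protein FCHO2 (1.91), RP2 (2.01), HYCC1 (2.03), DSEL (1.96) and PCMTD1 (1.89). In 16 of 16 genes of this set with over 1 probe set, every probe set had a positive estimate.

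The 24 largest decreases ranged from -1.74 to -1.05, and in 21 of 24 control siRNA replicate 3 was the lowest control array. After the poly-A shift they ranged from -0.84 to -0.16, and 4 of 24 stayed below the threshold: MEST, MRPS12, MICALL1 and ETV6. MEST, an imprinted gene, had 7.79, 7.91 and 7.85 in double siRNA and 9.77, 9.63 and 9.37 in control siRNA (-1.74 ± 0.09, adjusted p = 7.67e-07). MRPS12, a protein of the mitochondrial small ribosomal subunit, had 9.83, 9.86 and 9.81 in double siRNA and 11.50, 11.66 and 11.51 in control siRNA (-1.72 ± 0.07, adjusted p = 1.66e-07). These were wide gaps beside the spread of either group. ACTA2, smooth muscle actin, had 8.23, 8.45 and 8.22 in double siRNA and 9.50, 9.49 and 9.45 in control siRNA (-1.18 ± 0.08, adjusted p = 1.05e-06). The focal adhesion proteins ZYX, TGFB1I1 and LPXN were lower, with log2 changes of -1.14, -1.12 and -1.05, as was AJUBA, a LIM protein of adhesion sites and Hippo signalling (-1.07). Amino acid and energy metabolism was represented by SLC1A5, a glutamine transporter, with 8.01, 8.08 and 7.98 in double siRNA and 9.43, 9.06 and 8.78 in control siRNA (-1.07 ± 0.13), and by PCK2, the mitochondrial PEP carboxykinase, with 8.18, 8.37 and 8.20 in double siRNA and 9.41, 9.48 and 9.22 in control siRNA (-1.12 ± 0.07). EIF4EBP1, which restrains cap-dependent translation, had 9.15, 9.28 and 9.20 in double siRNA and 10.47, 10.40 and 10.20 in control siRNA (-1.15 ± 0.07, adjusted p = 1.05e-06). NES, the intermediate filament nestin of neural progenitors, had 10.18, 10.18 and 10.14 in double siRNA and 11.52, 11.32 and 11.14 in control siRNA (-1.16 ± 0.08, adjusted p = 1.12e-06). Also lower were LHX2, a neural homeobox factor (-1.07), MGLL, a monoacylglycerol lipase (-1.17), and GRWD1, a ribosome assembly factor (-1.23). In 11 of 11 genes of this set with over 1 probe set, every probe set had a negative estimate.

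**Figure D4:**
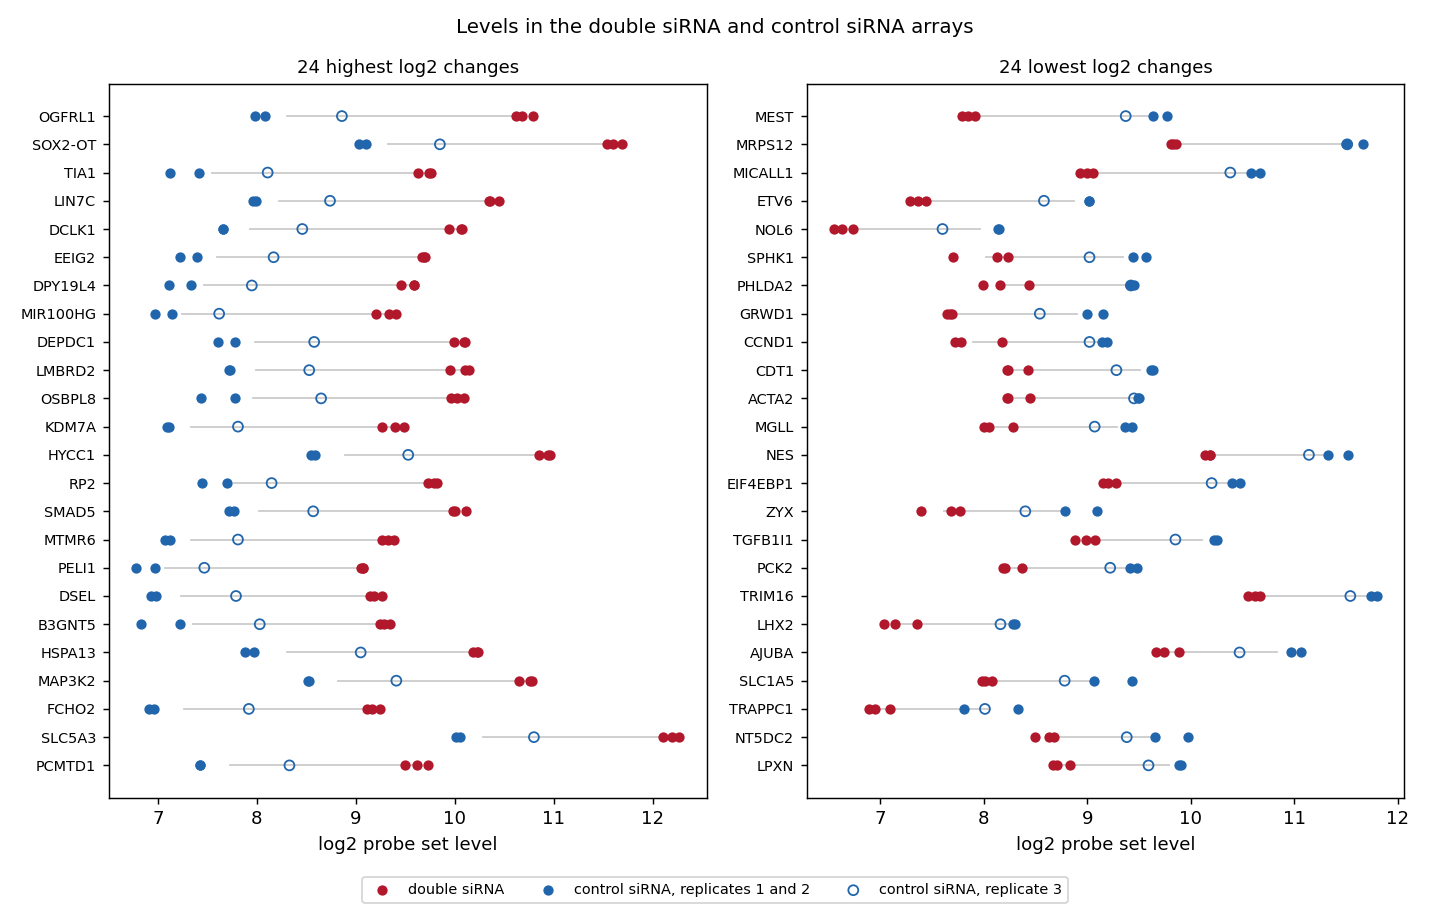
Log2 probe set levels of the 24 genes with the highest (left) and the 24 with the lowest (right) log2 change, double siRNA in red and control siRNA in blue, with control siRNA replicate 3 as an open circle and a grey line between the group means. In the left panel control replicate 3 lies between the other controls and the double siRNA arrays for 24 of 24 genes.

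NF-kB regulators and targets moved in both directions, as did the tested genes at large. Of 20 tested genes that encode NF-kB subunits and regulators, 8 rose and 9 fell, with a median change of -0.02 (0.88 after the poly-A shift). That is 0.11 above the median of all genes, but it lay below it with a filter at the 50th percentile or with the mean of probe sets. RELA, the transactivating partner of p50, had 8.56, 8.66 and 8.71 in double siRNA and 9.56, 9.19 and 9.17 in control siRNA (-0.66 ± 0.10, adjusted p = 6.24e-05), and without overlap between groups. NFKBIE, an inhibitor of NF-kB dimers, had 7.13, 7.28 and 7.05 in double siRNA and 8.06, 8.02 and 7.73 in control siRNA (-0.78 ± 0.09). MAP3K7 (TAK1), a kinase of the pathway, had 9.06, 9.02 and 9.10 in double siRNA and 7.78, 7.52 and 7.95 in control siRNA (1.31 ± 0.11, adjusted p = 2.50e-06), and its 4 probe sets changed by 1.08 to 1.44. CHUK, an IKK catalytic subunit, had 9.30, 9.52 and 9.44 in double siRNA and 8.23, 7.93 and 8.62 in control siRNA (1.16 ± 0.14). The signalling proteins TAB2, MALT1 and BCL10 rose by 0.81, 0.79 and 0.44, and TNIP2, which binds and limits the pathway, fell by 0.60 on the log2 scale.

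Of 12 tested NF-kB target genes, 3 rose and 8 fell, with a median of -0.39 (0.26 below the median of all genes) and of 0.50 after the poly-A shift. IL6, an inflammatory cytokine, had 8.24, 8.14 and 8.12 in double siRNA and 7.30, 7.59 and 7.51 in control siRNA (0.70 ± 0.08, adjusted p = 1.02e-05). VCAM1, an adhesion molecule for leukocytes, had 8.83, 8.71 and 8.73 in double siRNA and 7.24, 7.30 and 7.82 in control siRNA (1.30 ± 0.15, adjusted p = 1.21e-05). Both carry the motif printed above and both were higher in every double siRNA array. CXCL8, a neutrophil chemokine, had 8.54, 9.13 and 8.51 in double siRNA and 9.83, 9.72 and 9.63 in control siRNA (-0.997 ± 0.157, adjusted p = 0.000118). NFKBIA, with its own motif, had 9.78, 9.79 and 9.68 in double siRNA and 10.27, 10.31 and 10.10 in control siRNA (-0.48 ± 0.07). The urokinase gene PLAU had 10.34, 10.54 and 10.44 in double siRNA and 11.28, 11.29 and 11.24 in control siRNA (-0.82 ± 0.06), and IRF1, an interferon regulatory factor, fell by 0.69 on the log2 scale. Against the single knock-downs, IL6 was 0.56 ± 0.08 higher in double siRNA than in ETV6 siRNA (adjusted p = 3.84e-05) and 0.33 ± 0.08 higher than in NFKB1 siRNA (adjusted p = 0.00166, but 0.133 with equal array medians and 0.125 with quantile normalization). CXCL8 differed from ETV6 siRNA by 0.14 ± 0.16 (adjusted p = 0.428) (-0.065 without double siRNA replicate 2) and was lower than in NFKB1 siRNA (difference -1.14 ± 0.16, adjusted p = 2.53e-05).

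Of 14 tested ETS family factors, 7 rose (50.0%) and 4 fell (28.6%), against 31.9% and 49.0% of all genes. Their median was 0.26 (1.15 after the poly-A shift). That is 0.39 above the median of all genes, but 0.11 below it (-0.11) with a filter at the 50th percentile, which leaves fewer members. GABPA, an ETS activator of housekeeping and mitochondrial genes, had 8.98, 9.02 and 8.96 in double siRNA and 7.33, 7.20 and 8.19 in control siRNA (1.42 ± 0.25, adjusted p = 0.000229), while its other probe set changed by 0.37. Its partner GABPB1 rose by 0.54. ETS1, the founding member of the family, had 12.16, 12.23 and 12.21 in double siRNA and 11.56, 11.62 and 11.82 in control siRNA (0.53 ± 0.07). ERF, an ETS repressor downstream of ERK, had 8.86, 9.03 and 9.03 in double siRNA and 9.98, 9.92 and 9.65 in control siRNA (-0.88 ± 0.09), and ELF4 fell by 0.78 on the log2 scale. ELF2 rose by 0.81 on the probe set used, and the lowest of its 3 probe sets changed by 0.07.

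As deposited, genes of the start of DNA replication were mostly lower and genes of mitosis more often higher; after the poly-A shift the medians of both were above 0. Fewer cells in a phase and less RNA per cell cannot be told apart in these bulk samples. Of 46 tested G1/S and replication genes, 3 rose and 33 fell (71.7% lower, against 49.0% of all genes). Their median was -0.49, 0.36 below the median of all genes (0.41 after the poly-A shift). CDT1, which licenses origins, had 8.23, 8.43 and 8.22 in double siRNA and 9.63, 9.61 and 9.28 in control siRNA (-1.22 ± 0.10, adjusted p = 2.27e-06). MCM5, of the replicative helicase, had 9.10, 9.22 and 9.07 in double siRNA and 10.20, 10.18 and 10.05 in control siRNA (-1.01 ± 0.07), and MCM2 and MCM3 fell by 0.90 and 0.59 on the log2 scale. Every double siRNA array lay below every control array for these genes. CCND1, cyclin D1, had 7.78, 8.17 and 7.72 in double siRNA and 9.14, 9.19 and 9.02 in control siRNA (-1.22 ± 0.11), and its kinase partner CDK4 fell by 0.76. CHAF1B, of the histone chaperone CAF-1, fell by 0.99. CCND1 was also lower in double siRNA than in ETV6 siRNA (-0.61 ± 0.11, adjusted p = 0.000219, and 0.14 after the poly-A shift) and than in NFKB1 siRNA (-0.90 ± 0.11, adjusted p = 7.75e-06). The poly-A shift raises the difference from NFKB1 siRNA too.

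Of 54 tested G2/M and mitotic genes, 31 rose (57.4%) and 13 fell (24.1%), against 31.9% and 49.0% of all genes. Their median was 0.19 (0.32 above the median of all genes, and 1.09 after the poly-A shift). CCNA2, cyclin A2, had 10.40, 10.42 and 10.50 in double siRNA and 9.63, 9.55 and 9.71 in control siRNA (0.81 ± 0.06, adjusted p = 1.38e-06). KIF23, a kinesin of cytokinesis, had 10.13, 10.12 and 10.20 in double siRNA and 9.42, 9.20 and 9.48 in control siRNA (0.79 ± 0.09). The regulators FOXM1 and MYBL2, which drive late cell cycle transcription, went the other way. FOXM1 had 9.94, 10.0 and 10.0 in double siRNA and 10.64, 10.59 and 10.48 in control siRNA (-0.59 ± 0.05), MYBL2 fell by 0.74 and CDC20, an activator of the anaphase-promoting complex, by 0.46 on the log2 scale. AURKB, a mitotic kinase, fell by 0.56 on the probe set used, and its other probe set changed by 0.20.

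Of 26 tested p53 targets and apoptosis genes, 9 rose (34.6%) and 14 fell (53.8%), near the 31.9% and 49.0% of all genes. Their median was -0.21 (0.69 after the poly-A shift). PMAIP1 (NOXA), a pro-apoptotic BH3 protein, had 10.29, 10.25 and 10.23 in double siRNA and 8.58, 8.71 and 9.07 in control siRNA (1.47 ± 0.12, adjusted p = 2.17e-06). XIAP, a caspase inhibitor, had 10.90, 10.84 and 10.78 in double siRNA and 9.28, 9.33 and 9.92 in control siRNA (1.33 ± 0.14) on 1 of its 5 probe sets, of which the lowest changed by 1.22. BAX, which permeabilises mitochondria, had 8.04, 7.93 and 7.87 in double siRNA and 8.85, 8.87 and 8.86 in control siRNA (-0.91 ± 0.10), and BID, which activates it, fell by 0.83 on the log2 scale.

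As deposited, mitochondrial ribosomal protein genes were mostly lower. Genes for making ribosomes were lower at a share (54.8%) nearer that of all genes (49.0%). Both directions turned after the poly-A shift, and the counts for the cytosolic ribosome itself changed with the scaling. Of 74 mitochondrial ribosomal protein genes, 6 rose and 53 fell (71.6% lower, against 49.0% of all genes). Of these, 15 fell over 1.5-fold, against 13.9% of all genes. Their median was -0.34 (0.21 below the median of all genes, and 0.55 after the poly-A shift). MRPL52 had 10.22, 10.34 and 10.13 in double siRNA and 11.05, 11.08 and 11.07 in control siRNA (-0.83 ± 0.07, adjusted p = 2.24e-06). MRPL11 had 9.85, 9.87 and 9.82 in double siRNA and 10.52, 10.43 and 10.45 in control siRNA (-0.63 ± 0.05), and MRPL43 fell by 0.68 on the log2 scale. MRPS12 was the member furthest down, and in double siRNA it was 1.83 log2 units below ETV6 siRNA (difference -1.83 ± 0.07, adjusted p = 8.49e-08) and less far below NFKB1 siRNA (-0.43 ± 0.07, adjusted p = 7.23e-05, and 0.32 after the poly-A shift). Of 62 tested genes of ribosome biogenesis and RNA polymerase I, 14 rose (22.6%) and 34 fell (54.8%). Their median was -0.38 (0.25 below that of all genes, and 0.52 after the poly-A shift). NOL6, a nucleolar protein of the small subunit processome, had 6.63, 6.74 and 6.55 in double siRNA and 8.15, 8.14 and 7.60 in control siRNA (-1.33 ± 0.13). Subunits of 1 enzyme were split: POLR1H and POLR1D fell by 0.75 and 0.60 on the log2 scale, whereas POLR1F had 8.78, 8.72 and 8.79 in double siRNA and 7.10, 7.10 and 7.58 in control siRNA (1.503 ± 0.137, adjusted p = 3.31e-06). Among 56 tested cytosolic ribosomal protein genes 1 rose (1.79%) and 13 fell (23.2%), with a median of -0.06 as deposited. With equal array medians 0 rose and 41 fell (median -0.17), with quantiles 3 rose and 11 fell, and after the poly-A shift 54 rose and 0 fell (median 0.83). RPL39L, a paralog of RPL39, fell by 0.77, RPL36 by 0.37 and RPS3 by 0.29 on the log2 scale. Ribosomal protein genes have many near-identical copies in the genome, so these probe sets are uncertain.

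Of 18 tested cytosolic aminoacyl-tRNA synthetases, which charge tRNAs, 4 rose (22.2%) and 10 fell (55.6%), against 31.9% and 49.0% of all genes. Their median was -0.18 (0.72 after the poly-A shift). YARS1 had 10.01, 10.13 and 9.96 in double siRNA and 10.87, 10.95 and 10.93 in control siRNA (-0.88 ± 0.05, adjusted p = 1.01e-06), and AARS1, WARS1 and FARSA fell by 0.62, 0.62 and 0.83 on the log2 scale. TARS1 rose by 0.65 and LARS1 by 0.65. Of 13 mitochondrial synthetases, 3 rose (23.1%), among them IARS2 by 0.80, and 8 fell (61.5%), among them EARS2 by 0.62 on the log2 scale. Their median was -0.34 (0.55 after the poly-A shift). Of 53 translation initiation and elongation factors, 18 rose (34.0%) and 26 fell (49.1%), shares near those of all genes. Their median was -0.11 (0.78 after the poly-A shift). EIF1AX, a scanning factor, had 11.45, 11.49 and 11.52 in double siRNA and 10.25, 10.33 and 10.59 in control siRNA (1.09 ± 0.09). The stress kinases that phosphorylate eIF2 alpha, EIF2AK4 (GCN2) and EIF2AK3 (PERK), rose by 0.84 and 0.73, although a second probe set of EIF2AK4 changed by -0.48.

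Of 35 endoplasmic reticulum stress and ATF4 genes, 11 rose (31.4%) and 18 fell (51.4%), near the 31.9% and 49.0% of all genes. Their median was -0.13 (0.77 after the poly-A shift). The members that fell included enzymes and transporters of amino acid supply, but not all such genes fell. The cystine transporter SLC7A11 rose by 1.46, although its lowest probe set changed by -0.48. ASNS, asparagine synthetase, had 10.40, 10.55 and 10.46 in double siRNA and 11.38, 11.37 and 11.28 in control siRNA (-0.88 ± 0.05, adjusted p = 9.70e-07). PHGDH and PSAT1, of serine synthesis, fell by 0.76 and 0.72, and SLC3A2, the heavy chain of amino acid transporters, by 0.77 on the log2 scale. DNAJB9, a chaperone of the endoplasmic reticulum, had 10.46, 10.41 and 10.40 in double siRNA and 9.20, 9.24 and 9.53 in control siRNA (1.10 ± 0.08, adjusted p = 1.48e-06). Of 38 heat shock proteins and co-chaperones 15 rose (39.5%) and 15 fell (39.5%), with a median of -0.03 (0.87 after the poly-A shift). DNAJB1 fell by 0.70 on the log2 scale, and BAG4 had 8.87, 8.98 and 8.87 in double siRNA and 7.62, 7.84 and 7.99 in control siRNA (1.09 ± 0.10).

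Of 70 oxidative phosphorylation subunits, 14 rose and 38 fell, with a median of -0.16 (0.03 below the median of all genes, and 0.74 after the poly-A shift). CYC1, cytochrome c1, had 11.48, 11.59 and 11.49 in double siRNA and 12.19, 11.99 and 12.13 in control siRNA (-0.59 ± 0.06), and the complex I subunits NDUFA9 and NDUFS3 fell by 0.53 and 0.41 on the log2 scale. Of 38 tested hypoxia and glycolysis genes, 15 rose (39.5%) and 7 fell (18.4%), against 31.9% and 49.0% of all genes. Their median was 0.06 as deposited, -0.05 with equal array medians and 0.95 after the poly-A shift. PDK1, which blocks entry of pyruvate into the citric acid cycle, had 10.34, 10.33 and 10.33 in double siRNA and 8.24, 8.46 and 8.94 in control siRNA (1.79 ± 0.14, adjusted p = 1.93e-06). HIF1A, the oxygen-regulated transcription factor, had 13.78, 13.70 and 13.78 in double siRNA and 12.91, 12.99 and 13.14 in control siRNA (0.74 ± 0.07). P4HA1, a collagen prolyl hydroxylase, rose by 1.15, PDK3 by 1.19 and EGLN1, an oxygen sensor that marks HIF1A for degradation, by 0.90. For PDK1, PDK3 and EGLN1 the lowest probe set changed by 0.51, 0.05 and -0.02.

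Of 26 tested cholesterol and fatty acid synthesis genes, 9 rose (34.6%) and 14 fell (53.8%), near the 31.9% and 49.0% of all genes. Their median was -0.22 (0.68 after the poly-A shift). ELOVL6, a fatty acid elongase, had 10.02, 9.97 and 9.86 in double siRNA and 8.53, 8.56 and 8.98 in control siRNA (1.26 ± 0.12). INSIG1, which restrains the pathway, and the sterol enzyme IDI1 rose by 0.75 and 1.04. Other sterol enzymes, DHCR7 and LSS, fell by 0.78 and 0.47 on the log2 scale. Of 23 sphingosine and ceramide genes, 8 rose (34.8%) and 13 fell (56.5%), with a median of -0.23 (0.67 after the poly-A shift). SPHK1, which makes sphingosine 1-phosphate, had 8.13, 8.23 and 7.70 in double siRNA and 9.44, 9.57 and 9.02 in control siRNA (-1.32 ± 0.15, adjusted p = 1.24e-05), and the receptor S1PR3 fell by 0.55. ASAH1, which breaks down ceramide, rose by 0.79 and CERT1, which transports it, by 0.87.

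As deposited, genes of the extracellular matrix and its proteases were mostly lower. Of 41 tested members 2 were higher and 27 lower (65.9%, against 49.0% of all genes). Their median was -0.30 (0.17 below the median of all genes), and 0.60 after the poly-A shift. COL6A3 had 7.42, 7.60 and 7.31 in double siRNA and 8.52, 8.37 and 8.38 in control siRNA (-0.98 ± 0.08). MMP14, a membrane-bound matrix protease, had 9.82, 9.83 and 9.82 in double siRNA and 10.64, 10.49 and 10.50 in control siRNA (-0.72 ± 0.06), and the basement membrane genes COL4A2 and NID1 fell by 0.84 and 0.55 on the log2 scale. PLAUR, the receptor of urokinase, fell by 0.84. TGF-beta and YAP targets had 6 of 24 members higher and 16 lower, with a median of -0.37 (0.24 below the median of all genes) and of 0.52 after the poly-A shift. PMEPA1, a feedback inhibitor of TGF-beta signalling, had 10.11, 10.24 and 10.08 in double siRNA and 11.09, 11.15 and 11.04 in control siRNA (-0.95 ± 0.06, adjusted p = 1.05e-06), and CCN2, connective tissue growth factor, fell by 0.59 on the log2 scale. ACTA2 was 1.57 log2 units lower in double siRNA than in ETV6 siRNA (difference -1.57 ± 0.08, adjusted p = 4.53e-07) and differed by -0.20 ± 0.08 from NFKB1 siRNA (adjusted p = 0.0285, but 0.0995 without double siRNA replicate 1 and 0.107 without replicate 3), which became 0.55 after the poly-A shift.

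Surface receptors included some of the larger changes in both directions. Of 12 integrin subunits, 5 rose (41.7%) and 6 fell (50.0%), against 31.9% and 49.0% of all genes. Their median was -0.10 (0.80 after the poly-A shift). ITGA4 had 9.0, 9.01 and 9.10 in double siRNA and 6.82, 6.84 and 7.87 in control siRNA (1.86 ± 0.24, adjusted p = 2.79e-05), with 4 probe sets from 1.71 to 1.96. ITGAV had 12.46, 12.37 and 12.49 in double siRNA and 10.57, 10.58 and 11.35 in control siRNA (1.60 ± 0.17), whereas its possible partners ITGB5 and ITGB8 changed by -0.68 and 1.02. ITGB4, of hemidesmosomes, had 8.48, 8.56 and 8.74 in double siRNA and 9.68, 9.51 and 9.37 in control siRNA (-0.93 ± 0.09). Of 15 receptor tyrosine kinases known in glioblastoma, 4 rose (26.7%) and 8 fell (53.3%), shares near those of all genes. Their median was -0.23 (0.67 after the poly-A shift). EPHA3 had 11.40, 11.35 and 11.40 in double siRNA and 9.68, 9.67 and 10.16 in control siRNA (1.54 ± 0.12, adjusted p = 1.90e-06), and the collagen receptor DDR2 rose by 1.38. PDGFRA rose by 0.97 on the probe set used, with 11.89, 11.75 and 11.89 in double siRNA and 10.72, 10.79 and 11.12 in control siRNA, while its other probe set changed by 0.07. FGFR3, EPHA2 and AXL fell by 0.79, 0.81 and 0.50 on the log2 scale. EGFR had 9.88, 9.90 and 9.87 in double siRNA and 10.14, 10.22 and 9.98 in control siRNA (-0.23 ± 0.07, adjusted p = 0.0105, and 0.0504 without control siRNA replicate 2).

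Of 24 MAPK feedback and immediate early genes, 3 rose (12.5%) and 15 fell (62.5%), against 31.9% and 49.0% of all genes. Their median was -0.31 (0.18 below the median of all genes, and 0.59 after the poly-A shift). FOSL1, an AP-1 subunit, had 8.08, 8.43 and 8.31 in double siRNA and 9.32, 9.31 and 8.95 in control siRNA (-0.92 ± 0.11), and MYC had 7.86, 8.08 and 7.93 in double siRNA and 8.75, 8.76 and 8.48 in control siRNA (-0.71 ± 0.08). The Krüppel-like factors split, with KLF6 higher by 0.66 and KLF2 lower (log2 change -0.76). Of 30 interferon response and RNA sensing genes, 9 rose and 14 fell, with a median of -0.10 (0.80 after the poly-A shift). IFIT1, an RNA-binding interferon-stimulated protein, had 9.01, 8.90 and 9.0 in double siRNA and 7.88, 7.68 and 8.03 in control siRNA (1.11 ± 0.08, adjusted p = 1.25e-06). IFIT5 rose by 1.13, GBP1 by 0.68 and the receptor subunit IFNAR1 by 0.91, while IFI35 and the peptide transporter TAP1 fell by 0.72 and 0.56 on the log2 scale.

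Chromatin genes changed in both directions, and which was more frequent depended on the scaling. Of 68 tested chromatin modifiers and remodellers, 30 rose (44.1%) and 23 fell (33.8%) as deposited, against 31.9% and 49.0% of all genes. Their median was 0.11 (0.24 above the median of all genes, 0.01 with equal array medians, and 1.01 after the poly-A shift). With equal array medians 26 rose and 28 fell, with quantiles 27 rose and 25 fell, and after the poly-A shift 57 rose and 0 fell. Over 1.5-fold as deposited, 19 rose and 1 fell, against 16.5% and 13.9% of all genes. SIRT1, a deacetylase, had 8.87, 8.75 and 8.87 in double siRNA and 7.96, 8.01 and 8.0 in control siRNA (0.84 ± 0.06, adjusted p = 1.05e-06). HDAC9 rose by 1.24 and KDM3A, a demethylase induced by hypoxia, by 0.93. Of 28 ubiquitin-specific proteases, 16 rose (57.1%) and 10 fell (35.7%). Their median was 0.23 (0.36 above the median of all genes, and 1.12 after the poly-A shift). USP33 had 11.26, 11.20 and 11.24 in double siRNA and 9.30, 9.26 and 9.88 in control siRNA (1.76 ± 0.13, adjusted p = 1.48e-06), and USP1 and USP9X rose by 0.97 and 0.96. USP19 and USP11 fell by 0.63 and 0.67 on the log2 scale. Of 35 RAB small GTPases, 15 rose (42.9%) and 12 fell (34.3%). Their median was 0.01 as deposited, -0.10 with equal array medians and 0.91 after the poly-A shift. RAB10 rose by 0.72 and RAB23 by 0.79, and RAB1B and RAB5C fell by 0.75 and 0.85 on the log2 scale. The lowest probe set of RAB10 changed by 0.06.

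**Figure D5:**
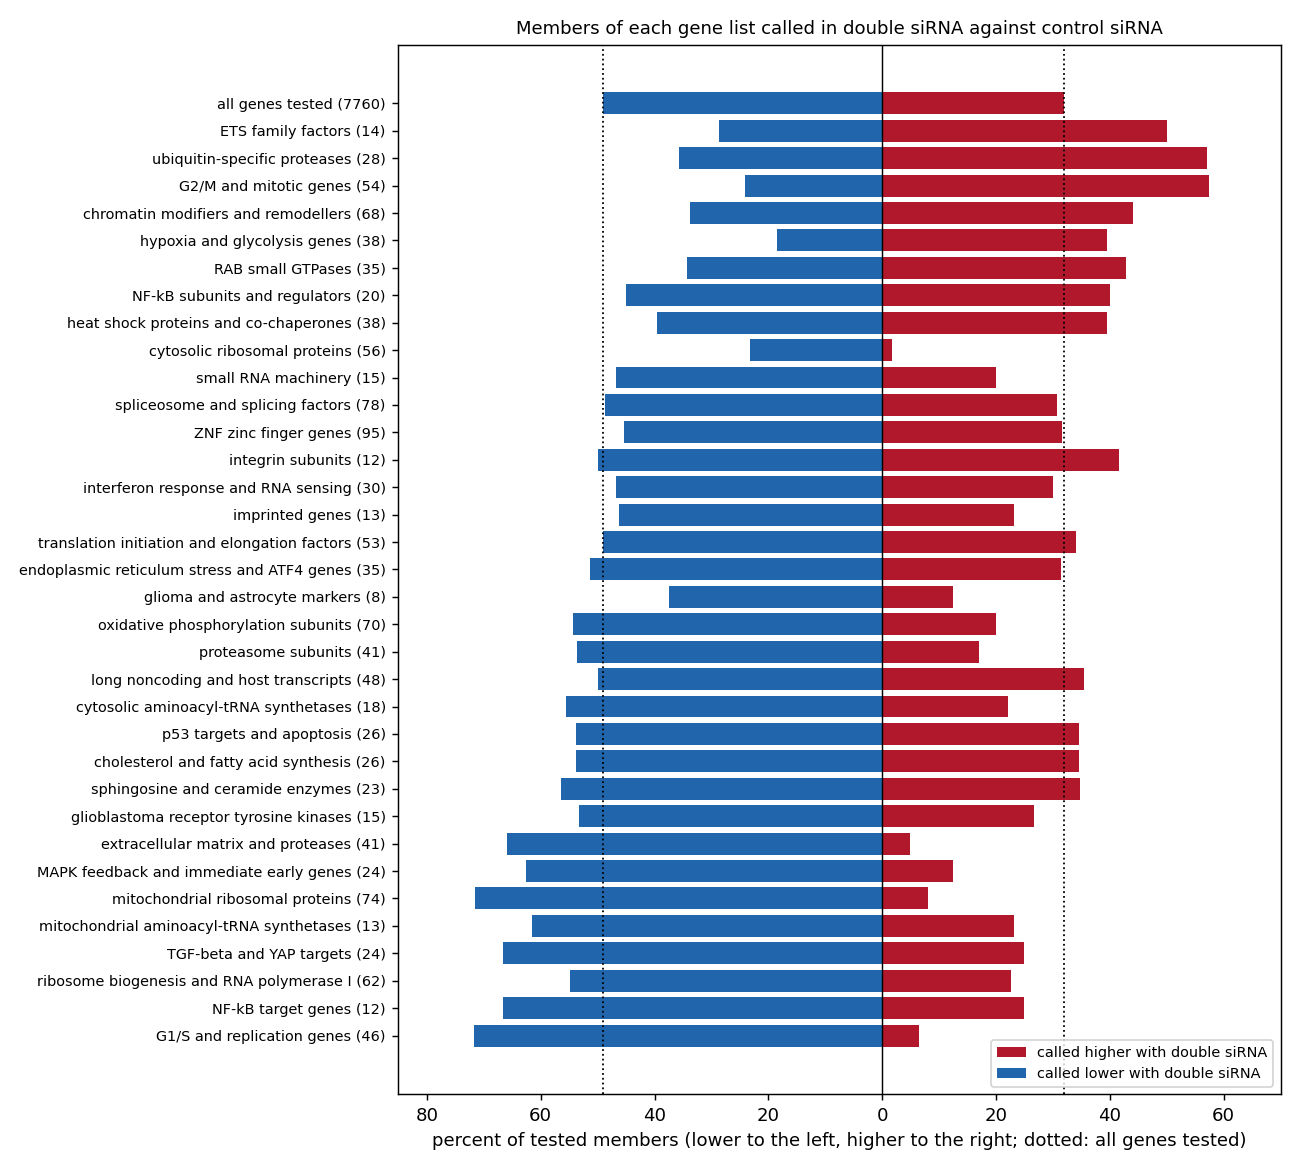
Percent of the tested members of each gene list called higher (right, red) or lower (left, blue) with double siRNA against control siRNA, with the number tested in brackets and dotted lines at the shares of all tested genes (31.9% higher, 49.0% lower). Lists run by the distance of their median change from that of all genes, from ETS family factors at the top to G1/S and replication genes, 71.7% of them lower, at the bottom.

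Of 78 spliceosome and splicing factors, 24 rose (30.8%) and 38 fell (48.7%), shares close to those of all genes (31.9% and 49.0%). Their median was -0.08 (0.81 after the poly-A shift). PRPF19, a core component of the spliceosome, had 9.22, 9.18 and 9.21 in double siRNA and 10.12, 10.02 and 10.04 in control siRNA (-0.86 ± 0.05, adjusted p = 7.67e-07). LSM2 and U2AF2 fell by 0.92 and 0.82, and PNISR rose by 0.89 with its 5 probe sets between 0.89 and 1.32. Of 15 genes of the small RNA machinery, 3 rose and 7 fell, with a median of -0.08 (0.82 after the poly-A shift). TSNAX, a subunit of the nuclease C3PO, had 10.65, 10.64 and 10.71 in double siRNA and 8.81, 8.90 and 9.62 in control siRNA (1.56 ± 0.17), and its partner TSN rose by 0.96, whereas TARBP2, a partner of Dicer, fell by 0.66 on the log2 scale. Of 41 proteasome subunits and assembly factors, 7 rose (17.1%) and 22 fell (53.7%), with a median of -0.16 (0.74 after the poly-A shift). PSMC4 had 10.45, 10.53 and 10.57 in double siRNA and 11.43, 11.30 and 11.18 in control siRNA (-0.79 ± 0.07), and PSMB5 fell by 0.46 on the log2 scale.

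Of 48 tested long noncoding and host transcripts, 17 rose (35.4%) and 24 fell (50.0%), near the 31.9% and 49.0% of all genes. Their median was -0.17 (0.73 after the poly-A shift). MIR100HG, a host of microRNA genes, had 9.34, 9.20 and 9.41 in double siRNA and 7.14, 6.97 and 7.62 in control siRNA (2.08 ± 0.15, adjusted p = 1.24e-06). OIP5-AS1 rose by 1.46 on the probe set used, and its 3 probe sets spanned 0.22 to 1.58. DANCR had 10.80, 10.81 and 10.74 in double siRNA and 11.47, 11.44 and 11.37 in control siRNA (-0.64 ± 0.04), and SNHG17, a small nucleolar RNA host, fell by 0.70 on the log2 scale. Of 95 tested ZNF zinc finger genes, 30 rose and 43 fell, shares close to those of all genes, with a median of -0.09 (0.81 after the poly-A shift). ZNF593 fell by 0.93 on the log2 scale and ZNF587 rose by 0.83. Of 13 imprinted genes, 3 rose (23.1%) and 6 fell (46.2%), with a median of -0.10 (0.79 after the poly-A shift). PHLDA2, which restrains placental growth in mice, had 8.16, 8.44 and 7.99 in double siRNA and 9.41, 9.45 and 9.42 in control siRNA (-1.23 ± 0.10, adjusted p = 1.90e-06). UBE3A, an E3 ligase, rose by 1.31 with 4 probe sets from 1.26 to 1.48. Both MEST and PHLDA2 were lower in double siRNA than in either single knock-down: MEST by a difference of -0.67 ± 0.09 from ETV6 siRNA (adjusted p = 3.67e-05, and 0.08 after the poly-A shift) and -1.75 ± 0.09 from NFKB1 siRNA (adjusted p = 1.34e-07), and PHLDA2 by -0.89 ± 0.10 (adjusted p = 7.81e-06) and -1.03 ± 0.10 (adjusted p = 1.23e-06). Over all genes 86.2% were called between double siRNA and ETV6 siRNA, and 89.1% between double siRNA and NFKB1 siRNA.

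Among markers of the cells, GFAP, the astrocyte filament, averaged 12.97 ± 0.14 in double siRNA and 13.51 ± 0.08 in control siRNA (SD, n = 3 each; limma log2 change -0.54 ± 0.08, adjusted p = 7.53e-05), and S100B rose by 0.38. The glutamate transporter SLC1A3 fell by 0.28 on the log2 scale. Of the 8 tested markers of this kind 1 rose (12.5%) and 3 fell (37.5%), against 31.9% and 49.0% of all genes. Their median was -0.14 (0.76 after the poly-A shift). Of the 3 tested markers of other cell types, MAP2, a neuronal microtubule protein, rose by 1.22, although its second probe set changed by -0.20, and KRT18 and TUBB3 fell by 0.55 and 0.26 on the log2 scale.

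Probe sets of 1 gene could disagree in direction. Of 3886 tested genes with over 1 probe set, 82.3% had all estimates of one sign, and 246 (6.33%) had a gap of over 1 log2 unit. The dimmest probe set had the higher change than the brightest in 57% of these genes, with a median difference of 0.041. CD44, a hyaluronan receptor of mesenchymal cells, had 13.22, 13.21 and 13.30 in double siRNA and 13.40, 13.38 and 13.26 in control siRNA on its brightest probe set (-0.11 ± 0.06, adjusted p = 0.0918), so the groups overlapped. Another 6 of its 8 probe sets changed by -0.38 to -0.26, and 1 dim probe set had 7.28, 6.39 and 7.14 in double siRNA and 4.64, 4.31 and 5.02 in control siRNA (2.28). PCGF5, of a Polycomb complex, had 8.98, 9.03 and 9.10 in double siRNA and 9.89, 9.76 and 9.60 in control siRNA on its brightest probe set (-0.72 ± 0.07), and 9.92, 9.75 and 9.95 in double siRNA and 7.45, 7.52 and 8.63 in control siRNA on another (2.01). CUL5, a ubiquitin ligase scaffold, rose by 1.63 on the probe set used, while its lowest changed by -0.72. SLC7A11, the cystine transporter, rose by 1.46 and had a lowest of -0.48, and ZNF655 fell by 0.43 on the log2 scale and had a highest of 1.91. CD44 passed the test on its brightest probe set without control siRNA replicate 3 (-0.15, adjusted p = 0.0238).

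The change also varied with level. From the dimmest to the brightest of 5 equal groups of tested genes the median log2 change was -0.32, -0.17, -0.10, -0.07 and -0.06, and the share called higher was 21.3% in the dimmest group. From the lowest to the highest of 5 equal groups by promoter GC content the median was -0.01, -0.13, -0.13, -0.14 and -0.24. These are descriptions across genes, which are not independent replicates.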

How the data were processed

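The values are log2 probe set levels as deposited by the authors in 1 table of 19520 probe sets and 12 arrays. The sources used here give no account of their background correction, summarization or scaling. Gene symbols came from the platform's probe table. It assigned 1 gene to 17313 probe sets, several to 857 and none to 1293, beside 57 controls. The brightest probe set stood for each gene. A minimum mean over all 12 arrays at the 25th percentile of genes (log2 7.54), waived for ETV6 and NFKB1, left 7760 for testing. That mean includes the double siRNA arrays, so genes bright only in them could pass. No 2 arrays were identical (0 pairs).

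Using limma 3.58.1 (R 4.3.3), a linear model with 1 mean for each of the groups was fitted over the 12 arrays and moderated with eBayes, with 8 residual degrees of freedom and 3.41 from the prior. Tests were two-sided, with Benjamini-Hochberg adjustment over all tested genes. With 3 arrays a side the smallest p of an exact permutation test is 0.1, so none was run. Tested on simulated data of 7760 genes with independent noise, the fit of double siRNA against control siRNA recovered 94% of 100 genes changed 1.5-fold and 98% of 100 changed 2-fold, with 5.9% false among calls; changes shared by many genes were not simulated. The deviations of same-numbered double and control siRNA arrays correlated at -0.31, 0.12 and -0.19, so the numbers were not taken as pairs.

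The gene lists and members were chosen with earlier results of these data known, and lists are described by counts and medians without a test of their own. Members without a probe set of their own in the deposited values, or under the level filter, were left out. Of 32 NF-kB targets listed 16 had a probe set and 12 were tested, and of 28 imprinted genes 13 were tested. Why the other probe sets are absent is not known here. Named were ETV6 and NFKB1, the 24 highest and 24 lowest called changes with separated groups and annotated symbols (not all are described), up to 6 called members of each list with the smallest adjusted p, some members for their role (RELA, CHUK, CXCL8, GABPA and EGFR), and the 5 genes with the largest gap between probe sets. A part of the rule on the brightest genes was not used, since levels of different probe sets are not comparable, and protein length was not computed. Alternatives were 3 other scalings, 2 other filters, the mean of probe sets or every probe set, array weights, trended robust variances, only the 6 arrays compared, a replicate block, and each array left out.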

Additional observations from a re-analysis of the deposited data

Results flagged for a closer look

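Signals outside the compared genes also separated the groups. The Alu control probe set, which reads repeat sequence, was higher in double siRNA than in control siRNA by 0.34 log2 units, with 14.45, 14.36 and 14.46 in double siRNA and 14.05, 14.04 and 14.15 in control siRNA. Of the 1293 probe sets that name no gene, 564 (43.6%) had every double siRNA array above every control siRNA array, against 33.5% of the tested genes, and 459 (35.5%) had every double siRNA array below, against 50.8%. These differences were chosen for the separation of the groups and were not tested.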

How the results depend on the processing

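Across 17 alternatives to the fit of double siRNA against control siRNA, the number of genes called lay between 5952 and 6413 when each array was left out in turn (higher 2325 to 2541, lower 3614 to 3872, beyond 1.5-fold 1964 to 2882). The counts moved by over 1.5 times in 3 of the alternatives. Treating every probe set on its own called 10299 (4495 higher, 5804 lower, 4077 beyond 1.5-fold), over a larger number of tests. A filter at the 50th percentile left fewer genes, with 1595 called higher and 1400 beyond 1.5-fold. The poly-A shift called 5110 higher, 4 lower and 4911 beyond 1.5-fold, because it adds the mean spike-in difference to every gene. Replicate numbers were not taken as pairs, and the labels do not say whether same-numbered arrays were prepared together. With the replicate block 6283 genes were called (2465 higher, 3818 lower). Of 35 lists, 17 kept their side of the median of all genes in 17 of 17 alternatives. The lists of ETS factors, NF-kB regulators, interferon genes and integrins are among those that did not. Several of the alternatives could not move a list, so this count overstates how far the lists were tried. The median and poly-A shifts add the same amount to every gene. Trended robust variances, the replicate block and the fit to the compared arrays alone alter the test and not the size of a change. Of 187 genes named, 182 changed neither call nor sign outside the poly-A shift; the others were AURKB (-0.18, adjusted p = 0.133 with the mean of its probe sets), EGFR, PCGF5, CD44 and ZNF655.

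Under the poly-A shift 73 genes with an estimate below 0 as deposited had one above 0, or of 0 for MCM2. They were NFKB1 (0.13), MRPL11 (0.27), MRPL52 (0.064), MRPL43 (0.22), RPL39L (0.13), RPL36 (0.53), RPS3 (0.61), PSMC4 (0.11), PSMB5 (0.44), YARS1 (0.016), AARS1 (0.28), WARS1 (0.28) and FARSA (0.069). Next came EARS2 (0.27), POLR1H (0.15), POLR1D (0.30), NDUFA9 (0.36), CYC1 (0.31), NDUFS3 (0.49), RAB1B (0.15), RAB5C (0.046), USP19 (0.27), USP11 (0.23), PRPF19 (0.042), U2AF2 (0.081) and MCM2 (0). The same held for MCM3 (0.30), CDK4 (0.14), FOXM1 (0.31), MYBL2 (0.16), AURKB (0.34), CDC20 (0.43), BID (0.068), TNIP2 (0.29), NFKBIE (0.11), PLAU (0.073), IRF1 (0.20), NFKBIA (0.42) and ERF (0.02). To these belonged ELF4 (0.12), KLF2 (0.14), MYC (0.19), CCN2 (0.31), DHCR7 (0.12), LSS (0.43), ASNS (0.021), PHGDH (0.13), PSAT1 (0.18), SLC3A2 (0.12), DNAJB1 (0.20), IFI35 (0.18) and TAP1 (0.34). Also above 0 were TARBP2 (0.23), MMP14 (0.18), COL4A2 (0.055), PLAUR (0.056), NID1 (0.35), ITGB5 (0.22), FGFR3 (0.11), AXL (0.39), EPHA2 (0.092), S1PR3 (0.35), DANCR (0.26), SNHG17 (0.20) and GFAP (0.36). The last were SLC1A3 (0.61), KRT18 (0.35), TUBB3 (0.64), RELA (0.24), EGFR (0.67), PCGF5 (0.18), CD44 (0.79) and ZNF655 (0.47). Against the single knock-downs it turned MEST against ETV6 siRNA (0.08), CCND1 against ETV6 siRNA (0.14), NFKB1 against NFKB1 siRNA (0.71), MRPS12 against NFKB1 siRNA (0.32), MICALL1 against NFKB1 siRNA (0.26) and ACTA2 against NFKB1 siRNA (0.55). With the mean of the probe sets of a gene, PCGF5 changed by 0.77, ZNF655 by 0.74 and CD44 by 0.024, through the probe sets described above. The difference of CXCL8 between double siRNA and ETV6 siRNA was -0.065 without double siRNA replicate 2. The cause of other moves was not tested. Precision is limited by 3 arrays a group, and dim probe sets such as that of NFKB1 limit it further.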
